A study of Mus musculus with 12 samples.

Results

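White adipose tissue (WAT) of wild-type (WT) mice was compared with adipocytes that had been grown in culture from WT mice. The comparison took the 3 WAT libraries of WT mice at postnatal day 42 and the 3 libraries of WT adipocytes at day 8 of adipogenic induction, 6 of the 12 libraries in the series; the knockout libraries were left out. It covered the 21669 gene symbols listed for both kinds of sample, after removal of a prefix that the listing for the tissue carries. Per the labels' protocols, the cultured cells were pre-adipocytes taken from sWAT of newborn pups. They were kept in medium with serum, induced with insulin, dexamethasone and the phosphodiesterase inhibitor IBMX, and then held in medium with insulin and serum. The tissue came from older mice, so age and growth conditions differed between the groups along with the tissue. The labels give no sex, no strain and no depot for the tissue, carry no transgene for the WT groups, and leave it unsaid which animals or dishes the replicates stand for. Every p-value therefore rests on the spread among these 6 libraries, and that spread may be technical. Tissue and culture were also counted into separate tables with different lists of genes, so that an effect of the counting and an effect of the tissue cannot be told apart.

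White adipocytes store triglyceride in a single large droplet, make fatty acids from glucose, release them by lipolysis when adrenergic signals arrive, and secrete hormones such as leptin and adiponectin. Pre-adipocytes become adipocytes in a dish when glucocorticoid, cAMP and insulin signals switch on C/EBP factors and then PPARγ, the nuclear receptor that runs the fat cell program. A fat pad also holds progenitors, fibroblasts, blood vessels, nerves, macrophages and lymphocytes, whereas a culture holds what was plated and survived.

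The WAT libraries held 28844370 to 30704234 counts and the cultures 11601138 to 12401278, so that counting error was larger for the cultures. Levels are given as CPM, the count of a gene relative to the library total, after scaling with TMM, a method that assumes that most genes do not differ, and differences as log2 of WAT over culture with the standard error (SE) of the fit. Libraries of a group resembled each other (Pearson r of log CPM across genes 0.976 to 0.981 in WAT and 0.985 to 0.989 in culture) far more than libraries of the other group (0.715 to 0.751; genes are not independent replicates). Of 13400 genes tested with edgeR's quasi-likelihood test, 10180 (76%) passed a Benjamini-Hochberg adjusted p of 0.05, and such a gene is spoken of as called. Of all tested genes 5136 (38.3%) were higher in WAT and 5044 (37.6%) were higher in culture. A call alone therefore said little, and a second rule asked for a difference of at least 4-fold as well: 1414 genes (10.6%) were at least 4-fold higher in WAT and 1809 (13.5%) at least 4-fold higher in culture. The groups of 10028 called genes (98.5%) did not overlap, so a lack of overlap added little to a call. The median log2 difference over all tested genes was 0.01, with quartiles at -1.11 and 0.96. Without TMM, with scaling to the library totals alone, the median difference moved by 0.38 toward the culture, and the calls split into 3791 higher in WAT and 6364 higher in culture. Some genes have a numbered second entry in the tissue listing that holds part of their tissue reads (671 of the genes tested), and for these the WAT level of the main entry may be too low. The gene targeted in the other mice of the series, Fam50a (called Xap5 by the authors; chrX:74313033-74320149, GRCm38), was present in all 6 libraries: Fam50a stood at 33.04, 30.2 and 33.96 CPM in WAT and at 57.6, 51.8 and 45.1 CPM in culture. Its levels were lower in WAT without overlap (log2 difference -0.67 ± 0.13 SE, adjusted p = 6.5e-04).

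**Figure D1:**
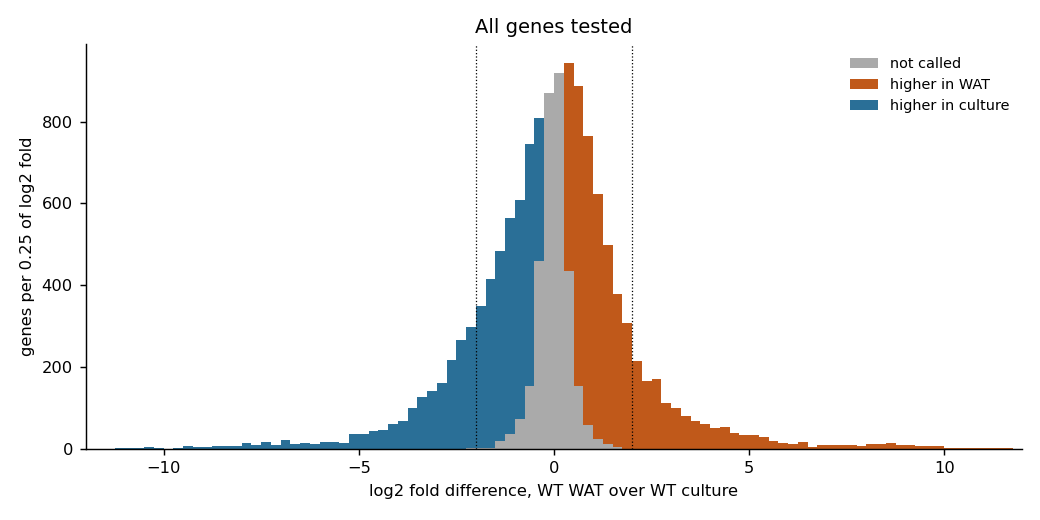
Histogram of the log2 fold difference (x axis, WT WAT over WT culture, 3 libraries each) of all tested genes, in bins of 0.25 (y axis, genes per bin), coloured by call; dotted lines mark the 4-fold limits and the x axis is cut at 12 on both sides. Genes higher in WAT (5136) and in culture (5044) were about as many, and the tail beyond 4-fold was larger on the culture side (1809 against 1414).

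Both groups expressed the defining genes of fat cells, which checks both labels. Fabp4 read 10720.3, 11632 and 11578 CPM in the WAT libraries and 8279, 7260.3 and 8467 CPM in the cultures. Fabp4 encodes the fatty acid carrier of adipocytes, and its levels were close in both groups (a 1.41-fold difference, log2 0.50 ± 0.12 SE). They did not overlap with TMM. As plain shares of the shared reads they did, at 0.944% to 1.02% in WAT and 0.819% to 0.985% in culture. Adipoq levels were 4311, 5003 and 4686 CPM in WAT against 2109.6, 1996 and 1960.2 CPM in culture. Plin1 read 1613, 1883 and 1606 CPM in the WAT libraries and 737, 658 and 579.9 CPM in the cultures. The adipokine adiponectin (Adipoq) and the droplet coat protein perilipin 1 (Plin1) were thus 2.31-fold and 2.58-fold higher in WAT. Cd36 stood at 1366, 923 and 1235 CPM in WAT and at 1103, 1137 and 1574 CPM in culture. The fatty acid transporter Cd36 was not called, and its groups overlapped; the 95% interval of its log2 difference ran from -0.49 to 0.26. Lpl stood at 2252, 1933 and 2038 CPM in WAT and at 2752, 2829.6 and 3294 CPM in culture. Lipoprotein lipase (Lpl), which frees fatty acids from circulating lipoproteins, was the only member of the adipocyte identity list that was higher in culture (log2 difference -0.51 ± 0.12 SE, adjusted p = 0.0019). With library totals alone 3 members were higher in culture, and after a correction for transcript length and GC content 0, Lpl then standing at log2 0.077 (adjusted p = 0.4).

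In all, 24 of 27 adipocyte identity genes were higher in WAT and 1 in culture, with 10 at least 4-fold higher in WAT and a median log2 difference of 1.49 against 0.01 over all genes. The summed level of the list was 63598 to 65818 CPM in WAT and 23147 to 24749.6 CPM in culture. In bulk samples, fewer fat cells and less RNA per fat cell cannot be told apart. The differences within the list were far from even. Lipe, the hormone-sensitive lipase, and Pnpla2, the first lipase of triglyceride breakdown, differed by log2 1.45 ± 0.13 and 1.64 ± 0.13. Cidec levels were 2836, 3006 and 3298 CPM in WAT against 684, 684 and 581 CPM in culture. Cidec, which fuses lipid droplets, stood 4.69-fold higher in WAT, while Cidea, a relative of Cidec with the same kind of role, stood 303-fold higher. Cidea read 1324, 1070.4 and 752 CPM in the WAT libraries and 5.05, 2.26 and 3.08 CPM in the cultures. Ces1d stood at 2565, 2986 and 2929.9 CPM in WAT and at 145, 144 and 143 CPM in culture. Ces1d, a carboxylesterase of the lipid droplet, had the smallest p of the list (log2 difference 4.30 ± 0.12 SE, adjusted p = 3.3e-10). Slc2a4 read 408, 515 and 524 CPM in the WAT libraries and 81.4, 61.7 and 61.9 CPM in the cultures. Slc2a4, the insulin-regulated glucose transporter GLUT4, has a second entry in the tissue listing, and with both entries summed its log2 difference was 3.60 ± 0.14 instead of 2.82 ± 0.15.

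**Figure D2:**
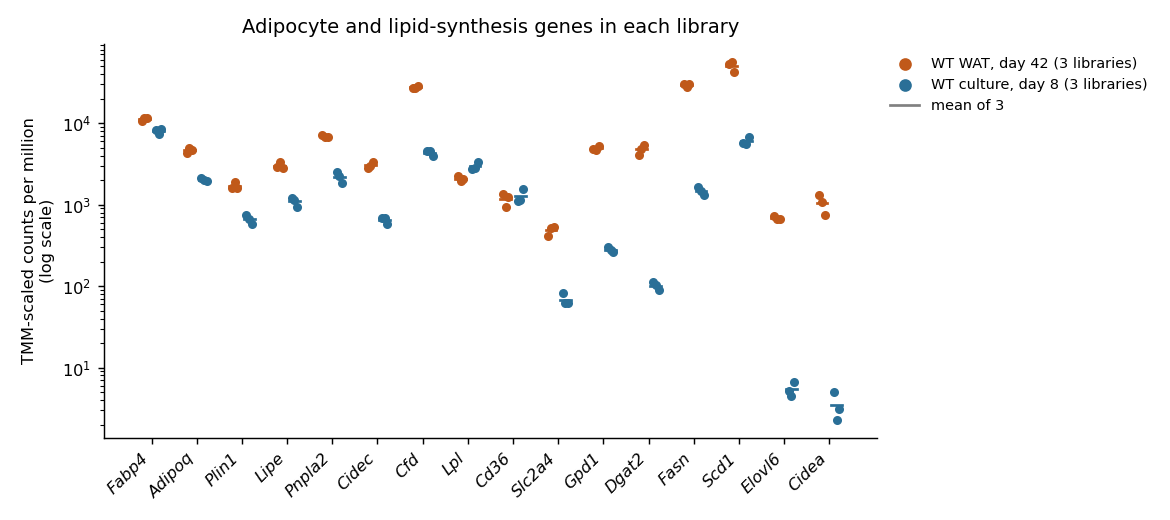
TMM-scaled CPM (y axis, log scale) of 16 adipocyte and lipid-synthesis genes (x axis) in each of the 3 WT WAT libraries and the 3 WT culture libraries; points are libraries and bars are means of 3. Fabp4, Lpl and Cd36 lay close in both groups, whereas Dgat2, Elovl6 and Cidea lay far lower in the cultures.

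The secreted factors of fat included genes called in each direction. Lep levels were 274, 402 and 359 CPM in WAT against 0.252, 0 and 0.395 CPM in culture. Leptin (Lep, chr6:29060221-29073876), which reports fat stores to the brain, rested on few reads in culture and had a fitted log2 difference of 10.58 ± 0.33 (adjusted p = 5.5e-10; 11.34 without culture replicate 3). Cfd read 26741, 27169 and 28271 CPM in the WAT libraries and 4505, 4562 and 3974 CPM in the cultures. Adipsin (Cfd), a complement protease made by fat cells, took 2.40% of the shared reads of WAT and 0.495% of those of the cultures, on average over 3 libraries. Retn stood at 2059, 1975 and 1982 CPM in WAT and at 912, 808 and 758 CPM in culture. Resistin (Retn) was 2.43-fold higher in WAT. Angiotensinogen (Agt) was higher in culture (log2 difference -2.33 ± 0.23 SE, adjusted p = 2.1e-06). Of the 22 secreted factors in the list 10 were higher in culture, Agt among them, against 8 higher in WAT (with numbered entries summed, 9 and 9, and with library totals alone 13 and 8), shares near those over all genes (37.6% and 38.3%). Angptl4, an inhibitor of lipoprotein lipase, was higher in culture in its main entry (log2 -1.16 ± 0.14, adjusted p = 1.3e-05). With its numbered entry added, Angptl4 was higher in WAT instead (log2 0.51 ± 0.13, adjusted p = 0.0035), so its direction depended on how the reads of the tissue were assigned.

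Fatty acid synthesis had the highest median among the metabolic lists under this scaling; after a correction for length and GC the thermogenic list stood above it (3.05 against 2.88). In it, 21 of 22 members were higher in WAT, 15 of them at least 4-fold, with a median log2 difference of 3.02. Acly stood at 4594, 3964 and 6498 CPM in WAT and at 399.8, 362 and 446 CPM in culture. Acly makes acetyl-CoA from citrate, and was 12.5-fold higher in WAT. Acaca levels were 3988, 3631 and 3798 CPM in WAT against 319, 289 and 350.5 CPM in culture. Fasn read 30319.9, 27807 and 30144 CPM in the WAT libraries and 1649.5, 1457 and 1302 CPM in the cultures. Acetyl-CoA carboxylase 1 (Acaca) and fatty acid synthase (Fasn), the enzymes that commit and then build the chain, were 11.9-fold and 20.02-fold higher. Elovl6 stood at 717, 661 and 659 CPM in WAT and at 5.13, 4.44 and 6.71 CPM in culture. Elovl6, which lengthens palmitate to stearate, had the largest difference of the list (log2 difference 6.96 ± 0.17 SE, adjusted p = 1.4e-10). Scd1 read 53436, 56469 and 42529 CPM in the WAT libraries and 5691, 5541 and 6679 CPM in the cultures. Scd1, the desaturase that makes oleate, held the largest share of reads in WAT (4.45%) and was also among the 10 largest of the cultures (0.681%). Thrsp levels were 6249, 6978 and 7899.8 CPM in WAT against 286, 201 and 248 CPM in culture. Tkt read 7797, 7404 and 8423 CPM in the WAT libraries and 756, 670.0 and 615 CPM in the cultures. Thrsp, a lipogenic cofactor, and Tkt, an enzyme of the pentose phosphate pathway, were both among the 10 genes with the largest share of reads in WAT and differed by log2 4.85 ± 0.17 and 3.53 ± 0.13. The single member higher in culture was the desaturase Fads2 (log2 -0.33 ± 0.12), a call lost without WAT replicate 1 or 3 or culture replicate 1 or 2 (adjusted p from 0.056 to 0.11).

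Enzymes that build and break triglyceride were also mostly higher in the tissue. In triglyceride assembly, 12 of 14 members were higher in WAT and 1 in culture (median 2.27). Dgat2 stood at 4073, 4801 and 5378 CPM in WAT and at 111, 104 and 89.5 CPM in culture. Dgat1 stood at 528, 558 and 510.5 CPM in WAT and at 298, 268 and 236 CPM in culture. Both enzymes add the last acyl chain to diacylglycerol, and the difference was 46.7-fold for Dgat2 and 1.99-fold for Dgat1. Gpam levels were 329, 358 and 474 CPM in WAT against 224, 218 and 240.0 CPM in culture. Gpam, which starts glycerolipid synthesis, differed by log2 0.77 ± 0.14. In lipolysis and its adrenergic control, 16 of 17 were higher in WAT (median 1.59). Mgll read 1643, 1888 and 1762 CPM in the WAT libraries and 78.3, 77.1 and 68.3 CPM in the cultures. Monoglyceride lipase (Mgll), which takes the last fatty acid off glycerol, had the smallest p of that list and was 23.7-fold higher in WAT. Adrb3 stood at 778, 779 and 742 CPM in WAT and at 523, 439 and 404 CPM in culture. The β3-adrenergic receptor (Adrb3) was present in both and 1.68-fold higher in WAT. The member higher in culture was Pde3b, the phosphodiesterase through which insulin restrains lipolysis (log2 -1.01 ± 0.17).

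Fatty acid oxidation genes were higher in WAT in 18 of 22 cases (median 1.11), but the gate into mitochondria differed by isoform. Cpt1b read 172, 122 and 68.5 CPM in the WAT libraries and 20.4, 14.6 and 20.7 CPM in the cultures. Cpt1a levels were 27.7, 25.7 and 24.5 CPM in WAT against 43.8, 49.6 and 46.4 CPM in culture. The muscle-type carnitine palmitoyltransferase Cpt1b was thus higher in WAT and the liver-type Cpt1a higher in culture, in both cases without overlap. Hadh, a dehydrogenase of β-oxidation, had the smallest p of the list (log2 difference 2.12 ± 0.12 SE, adjusted p = 2.9e-08). Thermogenic genes of brown and beige fat were higher in WAT in 13 of 17 cases (median 2.70). Ucp1 read 131, 54.04 and 75.3 CPM in the WAT libraries and 1.85, 0.670 and 1.34 CPM in the cultures. Ucp1, the uncoupling protein that lets brown fat make heat, was highest in WAT replicate 1, and its groups did not overlap. Its fitted log2 difference was 6.07 ± 0.40 (adjusted p = 8.6e-08), and the summed thermogenic list was likewise highest in replicate 1 (3378 CPM, against 2644 and 2199).

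Mitochondrial genes encoded in the nucleus were higher in WAT by small amounts. Of 36 respiratory chain subunits, 29 were higher in WAT, 2 in culture and none reached 4-fold (median 0.74); with library totals alone the counts were 20 and 6. Mitochondrial ribosomal proteins gave 22 and 3 of 37 (median 0.54), and with library totals alone 15 and 8 (median 0.17). Cox4i1 stood at 2708, 2592 and 2227 CPM in WAT and at 1319, 1152 and 1035 CPM in culture. Ndufa4 stood at 777, 778 and 693 CPM in WAT and at 211, 209.7 and 260.3 CPM in culture. Cox4i1, a subunit of cytochrome oxidase, and Ndufa4, another part of that enzyme, were 2.15-fold and 3.30-fold higher in WAT. The summed respiratory list was lowest in WAT replicate 3 (28691 CPM), yet above every culture (at most 20629 CPM).

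The transporters of sugar uptake differed in opposite directions. Slc2a1 levels were 15.5, 12.5 and 13.7 CPM in WAT against 211, 235 and 175 CPM in culture. GLUT1 (Slc2a1), the transporter that does not wait for insulin, was 14.9-fold higher in culture, the opposite of GLUT4 (Slc2a4, log2 2.82). Slc16a3 read 0.448, 2.18 and 5.61 CPM in the WAT libraries and 184, 191 and 140.4 CPM in the cultures. Ldha stood at 4260.2, 4386 and 4277 CPM in WAT and at 2134, 2102 and 1945 CPM in culture. The lactate exporter MCT4 (Slc16a3) was 61.8-fold higher in culture (log2 -5.95, -7.00 without WAT replicate 3), whereas lactate dehydrogenase A (Ldha) was 2.09-fold higher in WAT. Hk2 read 167, 148 and 145 CPM in the WAT libraries and 145, 175 and 135 CPM in the cultures. Hexokinase 2 (Hk2) was not called, with a 95% interval of the log2 difference from -0.25 to 0.28. Of 22 genes of sugar uptake and glycolysis, 12 were higher in WAT and 6 in culture, beside 38.3% and 37.6% of all genes. With library totals alone the majority turned, to 8 and 9.

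Cholesterol synthesis and the breakdown of branched-chain amino acids leaned to WAT. The first gave 17 higher in WAT and 4 higher in culture of 22 (median 1.14). Pmvk levels were 259, 264 and 255 CPM in WAT against 37.2, 30.2 and 29.3 CPM in culture. Pmvk, a kinase of the mevalonate pathway, was 8.05-fold higher in WAT. For branched-chain amino acids the counts were 13 and 5 of 19 (median 1.01). Bcat2 read 659.8, 700.2 and 757 CPM in the WAT libraries and 219, 193 and 169.5 CPM in the cultures. Bcat1 stood at 4.97, 3.23 and 5.92 CPM in WAT and at 43.3, 45.6 and 49.2 CPM in culture. The mitochondrial transaminase Bcat2 was higher in WAT and its cytosolic counterpart Bcat1 higher in culture.

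Receptors through which hormones reach fat were mostly higher in WAT, in 15 of 20 cases with 7 at least 4-fold (median 1.33). Ptger3 stood at 131, 121 and 147 CPM in WAT and at 0.252, 0.167 and 0.237 CPM in culture. Ptger3, a receptor for prostaglandin E2 that restrains lipolysis, was 588-fold higher in WAT. Esr1 levels were 35.7, 21.97 and 29.1 CPM in WAT against 5.64, 5.52 and 7.02 CPM in culture. The estrogen receptor (Esr1) was 4.76-fold higher in WAT. Insr read 62.2, 44.2 and 50.7 CPM in the WAT libraries and 42.6, 45.6 and 49.7 CPM in the cultures. The insulin receptor (Insr) was not called (95% interval of log2 -0.13 to 0.50). Igf1r stood at 8.76, 5.29 and 3.96 CPM in WAT and at 25.5, 21.6 and 24.1 CPM in culture. The IGF1 receptor (Igf1r) was 3.96-fold higher in culture. Igfbp3, which carries IGF1 in serum, was 8.70-fold higher in culture. It had the smallest p among 21 genes of insulin, IGF1 and growth hormone signalling. Of these 21 genes, 12 were higher in WAT and 5 in culture, beside 38.3% and 37.6% of all genes. The cultures had been induced with dexamethasone, a glucocorticoid, and were then held in medium with insulin and serum. Of 18 glucocorticoid-responsive genes, 9 were higher in WAT and 6 in culture (median 0.24), beside 38.3% and 37.6% of all genes. With library totals alone these counts turned to 7 and 9. Tsc22d3 read 121, 116 and 125 CPM in the WAT libraries and 18.01, 17.2 and 19.3 CPM in the cultures. Mt2 levels were 33.5, 28.6 and 16.7 CPM in WAT against 764, 875 and 878 CPM in culture. Tsc22d3 (GILZ) was 6.63-fold higher in WAT, and the metal-binding metallothionein Mt2 was 31.9-fold higher in culture. Hsd11b1 read 573, 493 and 627 CPM in the WAT libraries and 25.8, 26.4 and 29.9 CPM in the cultures. Hsd11b1, the enzyme that regenerates active glucocorticoid inside cells, was 20.6-fold higher in WAT.

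Most transcription factors of adipogenesis were present in both groups, and 1 of the list, Klf5, had no WAT read. Pparg stood at 300.3, 328 and 277 CPM in WAT and at 145, 150.0 and 189 CPM in culture. Cebpa stood at 1564, 1478 and 1228 CPM in WAT and at 565, 423 and 418 CPM in culture. PPARγ (Pparg) and C/EBPα (Cebpa) were 1.87-fold and 3.04-fold higher in WAT. Srebf1 levels were 1007, 1161 and 1246 CPM in WAT against 192, 185 and 150.5 CPM in culture. Rxra read 330.3, 328 and 310.1 CPM in the WAT libraries and 48.7, 48.9 and 39.4 CPM in the cultures. Srebf1, which drives lipid synthesis genes, and Rxra, the partner receptor of PPARγ, were 6.47-fold and 7.07-fold higher in WAT. Of 20 such factors 12 were higher in WAT and 3 in culture (median 0.86). Among 17 genes that restrain adipogenesis, 6 were higher in WAT and 9 in culture, beside 38.3% and 37.6% of all genes. Dlk1 stood at 0.530, 0.272 and 0.423 CPM in WAT and at 61.1, 52.4 and 46.9 CPM in culture. Dlk1 (Pref-1), which pre-adipocytes make and mature fat cells lose, was 129-fold higher in culture in its main entry, and log2 -5.91 ± 0.26 with its numbered entry added. Sox9 read 1.06, 0.311 and 0.269 CPM in the WAT libraries and 8.42, 8.71 and 7.81 CPM in the cultures. Sox9, another pre-adipocyte factor, was 15.2-fold higher in culture (log2 -3.92, -4.80 without WAT replicate 1).

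Genes of fetal growth and of body position differed in both directions. Of 17 imprinted and fetal growth genes, 11 were higher in culture and 4 in WAT (median -0.79). Peg3 levels were 23.6, 19.2 and 10.3 CPM in WAT against 46.1, 35.1 and 54.3 CPM in culture. Hmga2 read 0, 0.156 and 0 CPM in the WAT libraries and 5.89, 4.35 and 4.97 CPM in the cultures. Peg3, an imprinted zinc finger gene, was 2.55-fold higher in culture, and Hmga2, a chromatin protein of embryonic mesenchyme, was 86.04-fold higher (log2 -6.43; without WAT replicate 2, which held all its WAT reads, -9.46, a fitted value that depends on the prior count). Igf2 stood at 7.70, 3.03 and 4.73 CPM in WAT and at 1.09, 1.67 and 1.42 CPM in culture. Igf2, the fetal growth factor, went the other way and was 3.67-fold higher in WAT at low levels. A list named for homeobox genes, which record body position, also holds the T-box gene Tbx15. It gave 15 higher in WAT, 7 higher in culture and 11 not called of 33, beside 38.3% and 37.6% of all genes. With library totals alone the counts were 9 and 9. Hoxc9 stood at 13.6, 14.4 and 16.1 CPM in WAT and at 15.9, 13.1 and 15.4 CPM in culture. Hoxc10 levels were 40.7, 40.9 and 41.6 CPM in WAT against 19.9, 17.997 and 16.7 CPM in culture. Tbx15 read 10.3, 7.11 and 11.7 CPM in the WAT libraries and 19.3, 16.2 and 22.5 CPM in the cultures. Hoxc9 was not called, Hoxc10 was 2.26-fold higher in WAT, and Tbx15 was 1.99-fold higher in culture.

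Cell division genes were higher in the cultures almost without exception: 29 of 30 members were called in that direction, 22 of them at least 4-fold, and 0 in WAT (median -2.64). Mki67 stood at 1.55, 1.48 and 1.96 CPM in WAT and at 70.9, 84.9 and 86.1 CPM in culture. Top2a read 3.71, 2.60 and 3.23 CPM in the WAT libraries and 59.7, 68.1 and 77.6 CPM in the cultures. Cdk1 levels were 7.37, 10.5 and 5.76 CPM in WAT against 33.2, 30.6 and 31.1 CPM in culture. Ki-67 (Mki67), topoisomerase IIα (Top2a) and the mitotic kinase Cdk1 were 48.3-fold, 21.5-fold and 4.02-fold higher in culture. The member that was not called was Ccne1, the G1 cyclin E1 (log2 -0.43 ± 0.22), which was called without WAT replicate 2 (log2 -0.59, adjusted p = 0.038). The summed list stood at 189.8 to 202 CPM in WAT and 911 to 980.4 CPM in culture. Promoters of such genes are known for CCAAT boxes, bound by NF-Y, and for the cell cycle genes homology region (CHR), bound by the DREAM complex. RefSeq windows of 250 bases before the start (GRCm38.p6) were found for 24 of the 30 listed genes. Where a gene had several windows, it counted if any of them held the motif, for listed genes and all genes alike. ATTGG, the CCAAT box, occurred on either strand in 20 of them (83.3%), against 37.5% of all 27025 genes with such a window. TTTGAA, the core of the CHR, occurred on either strand in 7 (29.2%), against 18.3%. The windows of the 3 genes named here are shown because they hold both motifs, in capitals. For each gene the first window with a CCAAT box was taken. They lie at chr11:99024190-99024439 (Top2a), chr10:69352913-69353162 (Cdk1) and chr7:135716380-135716629 (Mki67). The windows of Top2a and Mki67 reach into the span of the gene, which ends at 99024199 and 135716450. Each is read 5′ to 3′ on the minus strand of the genome, which is the strand of the gene. A match is a description of letters and no evidence of binding.
Top2a: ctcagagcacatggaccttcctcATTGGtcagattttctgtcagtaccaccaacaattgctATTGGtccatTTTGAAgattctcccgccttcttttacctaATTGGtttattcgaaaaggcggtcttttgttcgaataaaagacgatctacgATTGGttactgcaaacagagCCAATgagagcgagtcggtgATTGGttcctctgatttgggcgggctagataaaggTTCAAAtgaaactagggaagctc
Cdk1: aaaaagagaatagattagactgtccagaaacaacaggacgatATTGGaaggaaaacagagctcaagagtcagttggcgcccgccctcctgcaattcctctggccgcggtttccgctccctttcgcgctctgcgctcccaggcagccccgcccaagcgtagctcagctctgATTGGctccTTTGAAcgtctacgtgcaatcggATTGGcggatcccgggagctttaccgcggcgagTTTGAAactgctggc
Mki67: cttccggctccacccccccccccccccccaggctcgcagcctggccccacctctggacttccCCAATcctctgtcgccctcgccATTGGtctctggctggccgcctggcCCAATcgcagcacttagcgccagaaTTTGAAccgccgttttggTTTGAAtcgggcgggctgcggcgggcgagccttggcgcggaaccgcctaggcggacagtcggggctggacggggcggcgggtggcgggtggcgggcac
There were 6 CCAAT and 2 CHR matches in the Top2a window, 3 and 2 in that of Cdk1 and 3 and 2 in that of Mki67.

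Genes of the collagen scaffold were mostly higher in the cultures as well. Of 30 genes of fibrillar collagens and their assembly, 26 were higher in culture, 21 of them at least 4-fold, and 3 in WAT (median -2.70). Col1a1 read 611, 461 and 406 CPM in the WAT libraries and 7249.6, 7519 and 5205 CPM in the cultures. Col3a1 stood at 2043, 1637 and 1509 CPM in WAT and at 6379, 6472 and 5581 CPM in culture. Col1a1 (chr11:94936224-94953042), Col3a1 and Col1a2 encode the chains of collagens I and III and were among the 10 genes with the largest share of reads in the cultures (0.757%, 0.699% and 0.546%). Col12a1 stood at 2.77, 2.76 and 2.23 CPM in WAT and at 282, 317 and 327 CPM in culture. Col12a1, which coats collagen fibrils, was 119-fold higher in culture and had the smallest p of the list. P4ha3 levels were 0, 0.156 and 0.154 CPM in WAT against 45.4, 49.4 and 42.1 CPM in culture. Fn1 read 30.8, 43.4 and 61.6 CPM in the WAT libraries and 2885, 3196 and 2435 CPM in the cultures. P4ha3, a collagen prolyl hydroxylase, was 409.7-fold higher in culture, and fibronectin (Fn1) 62.7-fold. Sparc stood at 4354, 4903 and 4534 CPM in WAT and at 2957, 3064 and 2669 CPM in culture. The members higher in WAT were Sparc, Serpinh1 and Pcolce2, by log2 0.67 ± 0.11, 0.69 ± 0.13 and 0.69 ± 0.23; with library totals alone these became 0.29, 0.32 and 0.31. Without culture replicate 2 Pcolce2 was not called (adjusted p = 0.092).

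**Figure D3:**
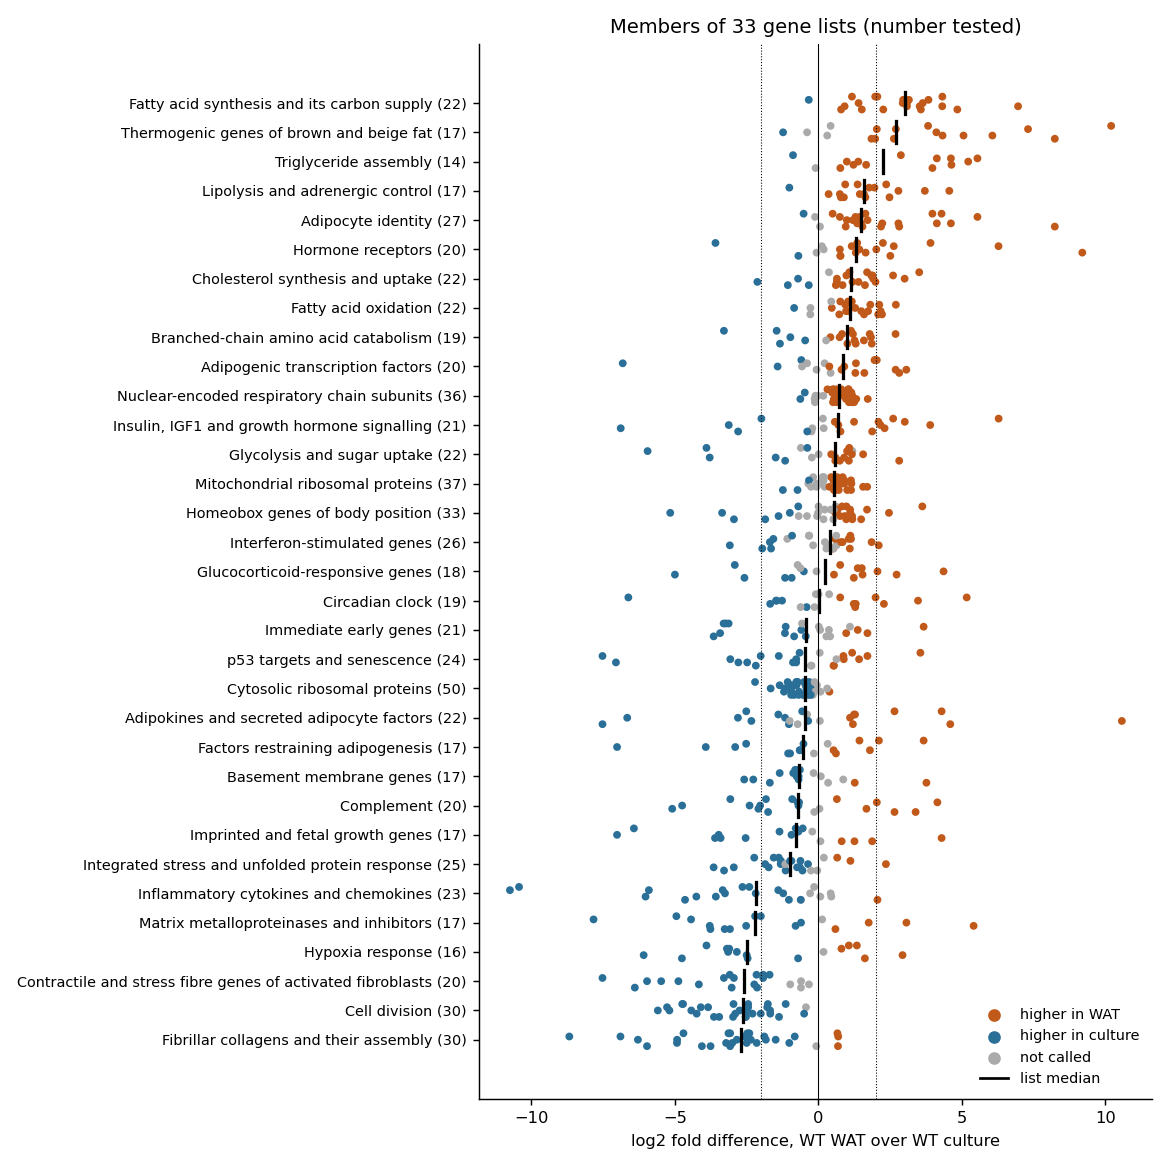
Log2 fold difference (x axis, WT WAT over WT culture) of every tested member of 33 gene lists (y axis, number tested in brackets), coloured by call, with the list median as a black bar and dotted lines at 4-fold; lists are sorted by median. Fatty acid synthesis had a median of 3.02, and cell division and fibrillar collagens had medians of -2.64 and -2.70.

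Genes of cell contraction and of matrix turnover were also mostly higher in culture. No contractile or stress fibre gene was higher in WAT and 16 of 20 were higher in culture (median -2.59). Acta2 read 52.3, 105 and 147 CPM in the WAT libraries and 732, 942 and 792 CPM in the cultures. Tagln levels were 39.9, 46.1 and 93.2 CPM in WAT against 496, 546 and 478 CPM in culture. Smooth muscle actin (Acta2) and transgelin (Tagln), marks of myofibroblasts and of smooth muscle, were 8.11-fold and 8.49-fold higher in culture. Thbs1 read 17.2, 21.6 and 20.7 CPM in the WAT libraries and 1508, 1654 and 1846 CPM in the cultures. Thrombospondin 1 (Thbs1) had the smallest p of the list and was 84.1-fold higher in culture. Among 17 metalloproteinases and their inhibitors, 12 were higher in culture and 4 in WAT. Timp1 stood at 2.85, 1.98 and 2.34 CPM in WAT and at 484, 584 and 571 CPM in culture. Timp4 stood at 125, 87.4 and 145 CPM in WAT and at 3.53, 2.01 and 2.84 CPM in culture. The inhibitor Timp1 (chrX:20870166-20874737) was 228-fold higher in culture, whereas its relative Timp4, an inhibitor that fat tissue is known to make, was 42.6-fold higher in WAT. Basement membrane genes had a smaller median: 11 of 17 were higher in culture and 2 in WAT (median -0.69). Col4a1 levels were 1760.3, 1957 and 1829.9 CPM in WAT against 3737, 3568 and 2868 CPM in culture. Col4a1, a chain of the collagen sheet around fat cells, was 1.83-fold higher in culture.

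**Figure D4:**
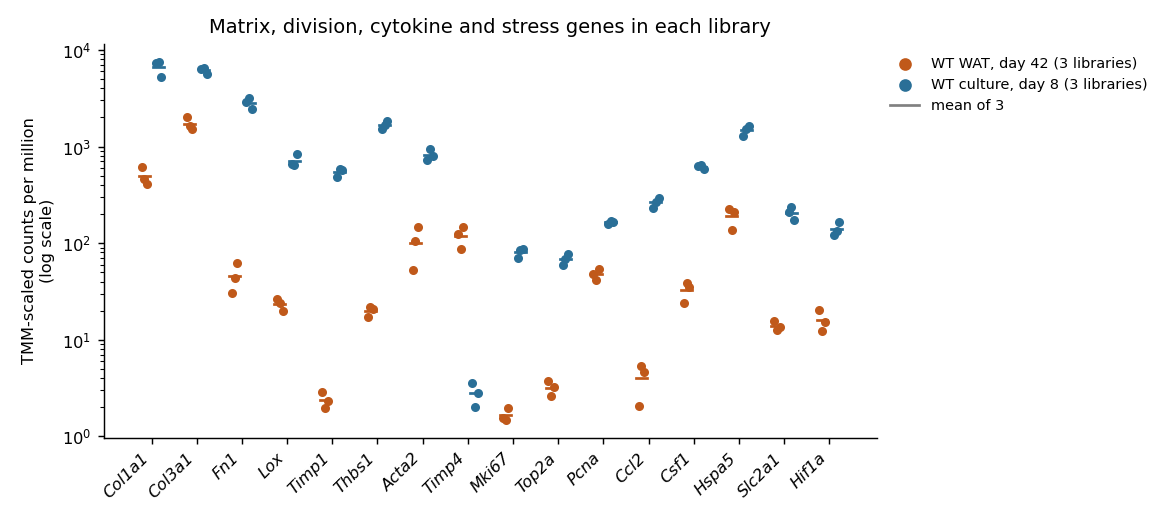
TMM-scaled CPM (y axis, log scale) of 16 matrix, division, cytokine and stress genes (x axis) in each of the 3 WT WAT libraries and the 3 WT culture libraries; points are libraries and bars are means of 3. All but Timp4 lay higher in the cultures. No gene shown had overlapping groups, as held for 98.5% of all called genes.

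Genes of the integrated stress and hypoxia responses also stood mostly higher in culture. For the integrated stress and unfolded protein responses the counts were 18 higher in culture and 3 higher in WAT of 25 (median -0.99). Hspa5 read 225, 135 and 213 CPM in the WAT libraries and 1284, 1509.8 and 1617 CPM in the cultures. Atf4 stood at 128, 154 and 123 CPM in WAT and at 346, 353 and 304 CPM in culture. The chaperone BiP (Hspa5) was 7.70-fold and the stress factor Atf4 2.48-fold higher in culture. Phgdh read 372, 451 and 448 CPM in the WAT libraries and 88.9, 83.3 and 75.99 CPM in the cultures. Phgdh, the first enzyme of serine synthesis and the member with the smallest p, was 5.12-fold higher in WAT. Of 16 hypoxia response genes, 10 were higher in culture and 5 in WAT (median -2.48), although the summed list, which holds the abundant Ldha, was higher in WAT (6015 to 6062 CPM against 4149.9 to 4307). Hif1a levels were 20.1, 12.2 and 15.2 CPM in WAT against 122, 132 and 165 CPM in culture. Epas1 read 402, 435 and 409 CPM in the WAT libraries and 55.9, 56.3 and 50.7 CPM in the cultures. The oxygen-regulated factors differed in opposite directions: HIF-1α (Hif1a) was 8.83-fold higher in culture and HIF-2α (Epas1) 7.65-fold higher in WAT. Vegfa stood at 238, 119 and 167 CPM in WAT and at 299.9, 272 and 281 CPM in culture. The angiogenic factor Vegfa was 1.63-fold higher in culture. Among p53 targets and senescence genes, 12 of 24 were higher in culture and 8 in WAT (median -0.45), beside 37.6% and 38.3% of all genes. Cdkn2a stood at 0, 0.156 and 0 CPM in WAT and at 9.68, 7.45 and 6.39 CPM in culture. Cdkn2a, a senescence gene that encodes p16 and p19, was 133-fold higher in culture on reads that, in WAT, lay in replicate 2 alone (log2 -7.05, and -10.09 without it, a fitted value that depends on the prior count). Immediate early genes gave 10 higher in culture and 4 in WAT of 21, beside 37.6% and 38.3% of all genes, and 7 were not called. Their median was -0.44, or -0.02 with numbered entries summed. The smallest p of that list was that of Junb (log2 difference -3.42 ± 0.14 SE, adjusted p = 2.3e-09).

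Cytokines that call in leukocytes were higher in culture in 16 of 23 cases, 12 of them at least 4-fold, and in WAT in 1 (median -2.18). Ccl2 levels were 2.04, 5.40 and 4.69 CPM in WAT against 234, 266 and 292 CPM in culture. Ccl2, which draws monocytes, was 64.9-fold higher in culture. Il6 read 0, 0 and 0 CPM in the WAT libraries and 9.004, 12.9 and 12.4 CPM in the cultures. Interleukin 6 (Il6) had no read in the WAT libraries and was at least 291-fold higher in culture, against a floor of 3 counts over the group. Csf1 stood at 24.1, 38.7 and 35.002 CPM in WAT and at 631, 642 and 589.8 CPM in culture. Csf1, the growth factor of macrophages, was 19.04-fold higher in culture. Interferon-stimulated genes showed no such lean: 10 of 26 were higher in WAT, 6 in culture and 10 were not called. Over all genes 38.3% were higher in WAT and 37.6% in culture. With library totals alone the counts of this list turned to 6 and 9. Cytosolic ribosomal proteins were higher in culture in 42 of 50 cases and in WAT in 1, by small amounts (median -0.46).

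Markers of other cell types were read in both kinds of sample. Macrophage markers were present in both and higher in culture: 21 of 23 tested markers were higher there, 17 of them at least 4-fold, and 1 in WAT. The summed list was at 663 to 1023 CPM in WAT and 4779 to 5270.2 CPM in culture. Cd68 read 19.6, 19.5 and 20.2 CPM in the WAT libraries and 663, 750.4 and 563 CPM in the cultures. Adgre1 levels were 20.1, 18.2 and 29.5 CPM in WAT against 154, 164 and 177 CPM in culture. Csf1r read 71.1, 47.003 and 62.2 CPM in the WAT libraries and 231, 238 and 184 CPM in the cultures. The lysosomal marker Cd68, the F4/80 antigen (Adgre1) and the CSF1 receptor (Csf1r) were 33.3-fold, 7.29-fold and 3.62-fold higher in culture. Ccr2 stood at 2.97, 2.68 and 3.84 CPM in WAT and at 0, 0 and 0 CPM in culture. The single marker higher in WAT was Ccr2, the CCL2 receptor of monocytes, which had no read in the cultures and was at least 38.6-fold higher in WAT. The part of these markers in the cytokine, matrix and complement values was not tested, and the C1q genes of the complement list are macrophage markers themselves.

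Antigen presentation by MHC class II went the opposite way from the macrophage list. 10 of 11 tested members were higher in WAT and 1, the costimulator Cd86, in culture (median 4.95, or 4.60 with the member that had no culture read set at its bound). Cd74 stood at 512, 461 and 688 CPM in WAT and at 1.94, 3.01 and 1.58 CPM in culture. H2-Aa levels were 155, 141 and 225 CPM in WAT against 0.337, 0.0837 and 0.0789 CPM in culture. H2-Eb1 read 163, 132 and 210.3 CPM in the WAT libraries and 0.926, 0.335 and 1.03 CPM in the cultures. The invariant chain Cd74, which escorts class II proteins, was 255-fold higher in WAT, and the class II chains H2-Aa and H2-Eb1 differed by log2 9.99 ± 0.34 (10.93 without culture replicate 1) and 7.77 ± 0.29. These chains have numbered entries in the tissue listing, and summing them raised the differences to 10.89 and 8.67. The summed list was 902 to 1408 CPM in WAT and 23.7 to 27.9 CPM in culture. Class II promoters are known for a conserved module that ends in a Y box, a CCAAT box bound by NF-Y. RefSeq windows were found for 11 of 15 listed genes, and ATTGG occurred on either strand in 9 of them, against 37.5% of all genes. The list also holds Cd86, Flt3, Itgax, Xcr1 and Clec9a, which are not genes of the class II pathway. Itgax and Xcr1 are among the 9, so that count is not one of class II promoters alone. The windows of H2-Aa, at chr17:34287824-34288073 on the minus strand, and H2-Eb1, at chr17:34305617-34305866 on the plus strand (GRCm38.p6), are shown for the chains described here. Each is the first window of its gene with a CCAAT box, and ATTGG or its reverse complement is in capitals.
H2-Aa: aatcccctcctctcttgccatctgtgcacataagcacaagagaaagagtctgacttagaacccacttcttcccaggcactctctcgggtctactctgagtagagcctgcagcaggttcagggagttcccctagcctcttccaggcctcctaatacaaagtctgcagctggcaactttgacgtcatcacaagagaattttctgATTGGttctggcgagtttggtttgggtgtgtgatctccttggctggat
H2-Eb1: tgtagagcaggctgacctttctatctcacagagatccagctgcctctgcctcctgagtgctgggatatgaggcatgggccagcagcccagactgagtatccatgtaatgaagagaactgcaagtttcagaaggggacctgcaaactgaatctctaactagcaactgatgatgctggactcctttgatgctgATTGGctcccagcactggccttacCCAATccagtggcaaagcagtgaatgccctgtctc
Adipocyte identity genes were searched in the same way for 1 strict form of the PPAR response element (AGGTCA, any base, AGGTCA). Of 14 windows found for 27 genes, 0 held it on either strand, against 0.0407% of all genes, and 5 held ATTGG. This strict form occurred in only 11 of all 27025 genes with a window, so 0 of 14 was likely for any list. The search therefore cannot show whether adipocyte identity genes have or lack the element, and no conclusion is drawn from it.

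**Figure D5:**
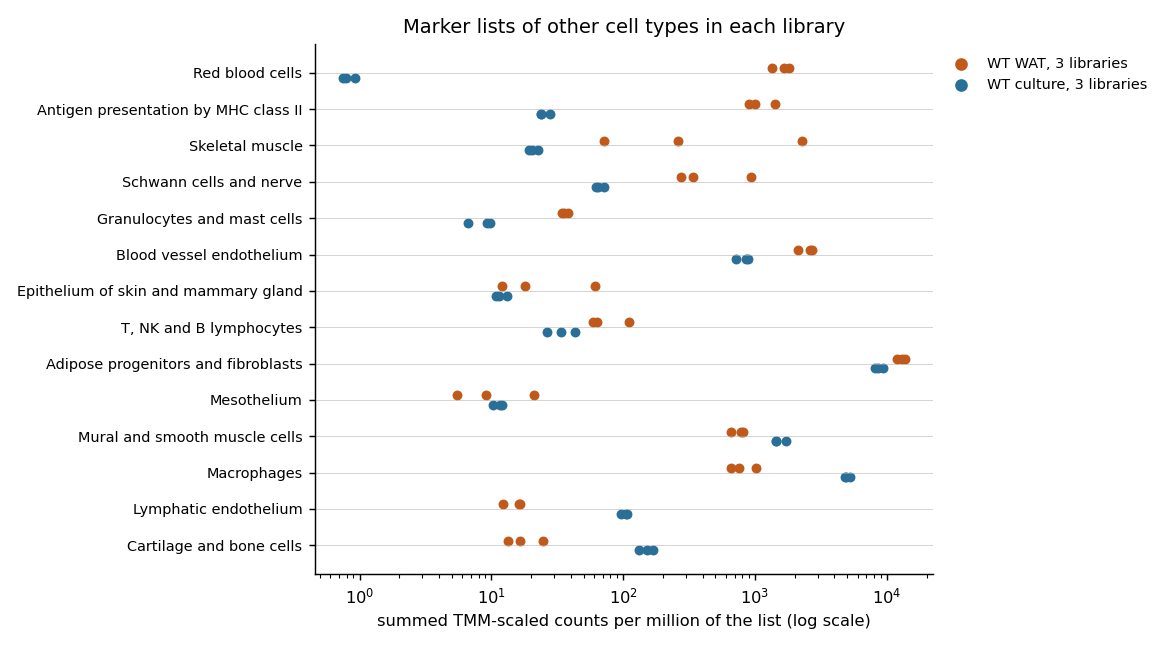
Summed TMM-scaled CPM (x axis, log scale) of 14 marker lists of other cell types (y axis) in the 3 WT WAT libraries and the 3 WT culture libraries; each point is a library, and lists are sorted by the ratio of the group means. Red blood cell and class II lists lay highest in WAT relative to the cultures, macrophage markers lay higher in the cultures, and the skeletal muscle list spread from 71.7 to 2278 CPM among the WAT libraries.

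Most lymphocyte markers were low in WAT and lower in the cultures. Of 22 shared symbols of the list 12 had no read in the cultures, and 15 of 18 tested markers were higher in WAT (median log2 7.40, or 4.83 with members at their bounds). Nkg7 stood at 8.64, 9.49 and 16.4 CPM in WAT and at 0, 0 and 0 CPM in culture. Nkg7, a granule protein of cytotoxic cells, was at least 141-fold higher in WAT. Ptprc read 6.15, 4.55 and 9.49 CPM in the WAT libraries and 19.8, 26.6 and 36.4 CPM in the cultures. The pan-leukocyte marker CD45 (Ptprc) was 4.10-fold higher in culture. Of 16 granulocyte and mast cell markers 8 were tested, 5 of them higher in WAT and 1 in culture. Among complement genes 12 of 20 were higher in culture and 6 in WAT, beside 37.6% and 38.3% of all genes. C3 levels were 1946, 1994 and 2139 CPM in WAT against 2095, 2107 and 1706 CPM in culture. The central component C3 was not called, with a 95% interval of the log2 difference from -0.22 to 0.30.

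Vessel and blood markers were mostly higher in the tissue. Of 19 endothelial markers 15 were higher in WAT and 0 in culture (median 1.63), but the cultures held 721 to 882 CPM of the summed list against 2132 to 2691 in WAT. Pecam1 read 215, 328 and 316 CPM in the WAT libraries and 109, 142 and 119 CPM in the cultures. Gpihbp1 stood at 209, 241 and 264 CPM in WAT and at 27.9, 37.3 and 29.99 CPM in culture. CD31 (Pecam1) was 2.32-fold and Gpihbp1, which carries lipoprotein lipase to the capillary wall, 7.50-fold higher in WAT. Rgs5 stood at 109, 105 and 83.8 CPM in WAT and at 2.27, 2.85 and 1.10 CPM in culture. Rgs5, a pericyte marker, was 48.1-fold higher in WAT. Of mural and smooth muscle markers, 7 of 12 were higher in WAT and 4 in culture, beside 38.3% and 37.6% of all genes. Acta2 and Tagln were among those higher in culture. Pdpn levels were 0.937, 0.739 and 0.576 CPM in WAT against 67.7, 75.8 and 74.1 CPM in culture. Podoplanin (Pdpn), which lymphatic cells and activated fibroblasts share, was 96.1-fold higher in culture (log2 -6.59, or -5.49 with its numbered entry added). Haemoglobin genes, whose near-identical copies can share reads, had no culture read: Hba-a1 stood at 625, 505 and 624 CPM in WAT, at least 7108-fold higher, and Hbb-bs at 702, 574 and 801 CPM, at least 8431-fold higher.

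Markers of muscle, nerve and skin differed widely among the WAT libraries. The summed skeletal muscle list was 71.7, 259 and 2278 CPM in WAT replicates 1 to 3 and 19.3 to 22.6 CPM in the cultures. Acta1 read 28.8, 139 and 437 CPM in the WAT libraries and 3.87, 3.93 and 3.95 CPM in the cultures. Skeletal actin (Acta1) was called (log2 difference 5.68 ± 0.83 SE, adjusted p = 6.0e-05); without WAT replicate 3 its log2 difference was 4.43 (adjusted p = 1.0e-06). The nerve list was 933, 274 and 336 CPM in the same order, highest in replicate 1. Krt18 stood at 10.4, 3.58 and 0.653 CPM in WAT and at 0, 0 and 0 CPM in culture. The epithelial keratin Krt18 was highest in the same library and at least 58.1-fold higher in WAT over the group. Mup11 read 60.995, 14.4 and 133 CPM in the WAT libraries and 0, 0.167 and 0.316 CPM in the cultures. Mup11, a major urinary protein whose reads near-identical relatives can share, spread widely too (log2 8.67 ± 1.00, 7.79 without WAT replicate 3 and 9.58 without culture replicate 3). Of the tested markers, 8 of 10 for muscle, 8 of 13 for nerve and 3 of 5 for epithelium were higher in WAT. Without WAT replicate 3 the muscle count was 3, and with limma voom on all 6 libraries it was 2. Of lymphatic markers 2 of 4 were higher in WAT and 2 in culture, and of mesothelial markers 1 and 1 of 3.

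Of 23 progenitor and fibroblast markers, 10 were higher in WAT and 12 in culture, beside 38.3% and 37.6% of all genes. Pdgfra levels were 22.4, 11.9 and 14.1 CPM in WAT against 157, 164 and 205 CPM in culture. Ly6a read 132, 166 and 218 CPM in the WAT libraries and 206, 232 and 206 CPM in the cultures. The progenitor receptor Pdgfra was 10.9-fold higher in culture, whereas Sca-1 (Ly6a) was called only without WAT replicate 3 (log2 -0.52, adjusted p = 0.0038) among the fits that leave out a library. Mfap5 stood at 22.2, 21.2 and 23.9 CPM in WAT and at 195, 226 and 215 CPM in culture. Dpp4 stood at 1.14, 0.855 and 1.73 CPM in WAT and at 0.168, 0.586 and 0.631 CPM in culture. Mfap5, a microfibril protein, was 9.46-fold higher in culture, and Dpp4, the mark of an upstream progenitor, was 2.65-fold higher in WAT at low levels, a call lost without any 1 of the culture libraries (adjusted p from 0.063 to 0.17) and with DESeq2 (0.078). Cartilage and bone markers were mostly under the count limit; of 4 tested, 3 were higher in culture, among them osteopontin (Spp1), which macrophages make as well. Spp1 levels were 6.27, 5.05 and 2.88 CPM in WAT against 111, 137 and 153 CPM in culture.

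The largest differences lay partly outside these lists. Among genes without a numbered entry, at 5 CPM or more on average and with 3 or more counts in the lower group, leptin was followed toward WAT by Cyp2e1 and Ptger3. Cyp2e1 read 4838, 5379.8 and 4766 CPM in the WAT libraries and 9.51, 8.79 and 6.47 CPM in the cultures. Cyp2e1, a cytochrome that oxidizes ketone bodies and solvents, was 606-fold higher in WAT. Car4 stood at 82.2, 106 and 98.5 CPM in WAT and at 0.337, 0.419 and 0.158 CPM in culture. Retnla read 43.4, 73.9 and 68.9 CPM in the WAT libraries and 0, 0.251 and 0.395 CPM in the cultures. Carbonic anhydrase 4 (Car4) and Retnla, a secreted relative of resistin, were 310.1-fold and 275-fold higher. Lamc3 levels were 35.04, 31.3 and 23.7 CPM in WAT against 0, 0.335 and 0.0789 CPM in culture. The laminin chain Lamc3 was the last of the 10 largest by this rule (log2 7.71). Without culture replicate 3 the log2 difference of Retnla was 8.87 (from 8.10), and without culture replicate 2 that of Lamc3 was 9.31. Toward the culture, the largest by the same rule were Fbn2 and Fosl1. Fbn2 read 0.0815, 0.117 and 0 CPM in the WAT libraries and 54.7, 57.9 and 47.8 CPM in the cultures. Fosl1 stood at 0, 0.0778 and 0.115 CPM in WAT and at 53.2, 49.6 and 36.3 CPM in culture. Fibrillin 2 (Fbn2), a fibre protein of fetal matrix, and Fosl1, an AP-1 factor, were 741-fold and 643-fold higher in culture (log2 -9.53 and -9.33; -10.15 without WAT replicate 2 and -9.94 without WAT replicate 3). Ptx3 stood at 0.530, 0.933 and 0.384 CPM in WAT and at 277, 289 and 264 CPM in culture. The pentraxin Ptx3, a secreted pattern recognition protein, was 445-fold higher. Map3k15, Gpr176, Vgf and Ms4a14 followed, with log2 differences from -8.42 to -7.77; without WAT replicate 3, which held all WAT reads of Ms4a14, its fitted value was -10.80. Slc24a5 rested on 3 WAT counts against 452 in culture, a ratio of 315 with a 95% counting interval from 107 to 1533. All its WAT counts lay in replicate 2 (fitted log2 -8.07, and -10.75 without it).

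Some genes were read in 1 group alone. Counting genes with at least 10 counts in each library of 1 group and 0 in every library of the other, 135 symbols were seen in WAT alone and 65 in culture alone. The shared symbols held 27877531 to 29698177 counts in WAT and 10559307 to 10896344 in culture. At those depths 10 counts stood for a lower level in WAT, and 0 counts were likelier in culture. With separate counting as well, 135 and 65 cannot be compared directly. Cemip levels were 0, 0 and 0 CPM in WAT against 56.6, 62.1 and 58.5 CPM in culture. Cemip, which breaks down hyaluronan, was at least 1502-fold higher in culture, and Kif26b, Gpr39, Reg1 and Folh1 at least 835-fold, 392-fold, 358-fold and 337-fold. At the other end, some abundant genes hardly differed. Sec13 read 138, 146 and 148 CPM in the WAT libraries and 145, 153 and 136 CPM in the cultures. Lgals1 stood at 1510.2, 1562 and 1451 CPM in WAT and at 1422, 1588 and 1480.1 CPM in culture. The coat protein Sec13 and galectin 1 (Lgals1) had 95% intervals of the log2 difference from -0.23 to 0.22 and from -0.22 to 0.24, and H2az1, Ndfip1 and Srpr were as near 0 on this scale. Car3 read 6712, 4321 and 5545 CPM in the WAT libraries and 5879, 6313 and 7144 CPM in the cultures. Carbonic anhydrase 3 (Car3), a very abundant fat protein, was not called either (log2 difference -0.22 ± 0.16 SE, adjusted p = 0.22), though it was without WAT replicate 1 (log2 -0.38, adjusted p = 0.047).

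Y-linked genes and clock genes were recorded for both groups. All 4 Y-linked genes tested were higher in culture, at 30.01 to 50.8 CPM summed in WAT and 172 to 235 CPM in culture. Eif2s3y levels were 20.6, 11.4 and 12.2 CPM in WAT against 81.6, 92.5 and 111 CPM in culture. All 6 libraries thus held Y-linked reads; the share of male material in each is not given, and its part in the other differences was not tested. Of 19 clock genes 8 were higher in WAT and 6 in culture, beside 38.3% and 37.6% of all genes. With library totals alone these counts turned to 7 and 9, and the hour of collection is not given.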

How the data were processed

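RNA was sequenced from 3 WT WAT samples at postnatal day 42 and from 3 WT adipocyte cultures at day 8. The deposited values are raw read counts per gene, in 1 table for WAT and 1 for cultures. Per the submitters' processing notes, HISAT2 2.1.0, cutadapt 1.11 and FastQC 0.11.2 were used, with the GRCm38 build. Which tool counted the reads, with which strand setting and annotation, is not given in the sources used here, so antisense and overlapping genes may share reads.

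Groups follow the sample titles. Symbols were matched after removal of the tissue table's prefix. The shared symbols held 96.5% to 96.7% of the WAT counts and 87.9% to 91.0% of the culture counts. Another 8.90% to 12.1% of the culture counts lay on mitochondrially encoded genes, which are outside the shared symbols and were not used. The WAT table has 1608 numbered second entries. These were kept apart in the main result and summed in an alternative.

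Genes were filtered with filterByExpr (minimum count 10), scaled with TMM and tested with edgeR 4.0.16 (R 4.3.3) on the 6 libraries, with a quasi-likelihood F test and Benjamini-Hochberg adjustment at 0.05. The test was also run on simulated data in which few of 13400 genes were changed: 67 by 1.5-fold, 67 by 2-fold and 66 by 4-fold. It recovered 16.4%, 62.7% and 90.9% of these. In the data 76% of genes were called, so these rates do not give the recovery in the comparison itself. Fold changes against a group without reads are bounds at a floor of 3 counts over the group. Intervals and bounds on counts cover counting error only. Replicates of a group differed by more than sampling noise.

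Members and gene lists were chosen with earlier results of these data known. Lists are described by their counts, and many also by their median. The shares and the median over all genes are given with the number of genes tested, and again beside some lists only. Named genes are the 10 largest differences per direction (adjusted p under 0.05, mean of at least 5 CPM, groups without overlap, at least 3 counts in the lower group, no numbered copy), key members of each list, each list's smallest p, the 10 largest shares of reads per group, 5 genes with the narrowest intervals about 0 at 100 CPM or more, 5 genes per direction without a read in the other group, and Fam50a. Not all of these are printed. Bcat1, Ccne1, Ccr2, Cd86, Fads2, Fn1, Hif1a, Hmga2, Klf5, Lpl, Pcolce2, Pde3b, Serpinh1 and Sparc were chosen after their values were seen. Gene coordinates are those of RefSeq on GRCm38, and transcript length and GC content are from GENCODE vM21.

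Some items are not reported here. Alternatives were other scalings and filters, DESeq2 1.42.0, limma 3.58.1 (voom), a replicate block, a fit over all 12 libraries, summed or omitted numbered entries, thinned WAT counts, a length and GC correction, and each library left out in turn.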

Additional observations from a re-analysis of the deposited data

How the results depend on the processing

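Under 18 alternatives the counts of genes higher in WAT and in culture stayed within 1.5 times 5136 and 5044. The 4-fold counts did too, except with a filter of at least 5 CPM in mean, which tests fewer genes and left 865 genes at least 4-fold higher in WAT and 1202 in culture. Leaving out 1 library gave 4876 to 4998 genes higher in WAT, 4790 to 4998 higher in culture, 1330 to 1647 at least 4-fold higher in WAT and 1722 to 1934 at least 4-fold higher in culture. With the replicate block the counts were 5051 and 4983, and 1412 and 1842 at 4-fold. Deviations from the group mean hardly correlated between libraries with the same replicate number (-0.042, 0.040 and 0.0087). With 3 libraries per group these values cannot show whether the numbers pair the samples. The block ended the call of Dpp4 and made one of Ly6a among 144 named genes. With library totals alone the median shifted by -0.38 and 37.3% of calls were higher in WAT, against 50.5% with TMM. Of the 144 named genes 121 kept their call under every alternative that tested them. Log2 differences that changed sign and were called under at least 1 of the compared settings were, with library totals alone, C3 (-0.33), Hk2 (-0.36), Lgals1 (-0.37) and Srpr (-0.37), none of which was called with TMM. With the length and GC trend removed they were C3 (-0.34), Hk2 (-0.30), Lgals1 (-0.55), Srpr (-0.28), Cd36 (0.98), Ndfip1 (0.65) and Lpl (0.077), of which Lpl alone had been called. With numbered entries summed Angptl4 turned to 0.51, since its tissue reads are divided. For the other changes the cause was not tested. The cultures had at most 12401278 counts each, and genes near the count limit rest on few culture reads. Tissue, age, culture and counting table vary together and cannot be told apart.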
